A study of Mus musculus with 9 samples.

Results

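The 10 genes described here are the secreted and membrane proteins of the myostatin, BMP and activin axis: the ligand genes Mstn, Gdf11, Bmp2, Bmp4, Bmp5, Bmp6, Bmp7 and Inhba, the antagonist gene Fst and the receptor gene Acvr1c. They were taken by symbol from the 55471 genes of the count table, and all 10 were found. They were chosen by their symbols with the CPM of these mice in view, above all the lower Bmp5 of knockout muscle, so differences between genotypes in these 10 genes are given as a description, without a test. RNA was sequenced from the gastrocnemius, the large calf muscle, of mice labelled C57BL/6, at postnatal day 0 to 1. The 5 mice written KO1 to KO5 were Shank3Δ11(-/-), named Pro2 KO GVO in the methods, bred from heterozygous C57BL/6JRj parents and homozygous for a loss of exon 11 of Shank3, which encodes a scaffold protein of synapses that is also found in striated muscle. The 4 controls, WT1 to WT4, were Shank3(+/+). A library was made per mouse, and the labels give neither a treatment nor the sex.

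Myostatin, GDF11, activins and BMPs belong to the TGF-beta family, whose members are cut from a larger precursor and act as dimers on a complex of type II and type I receptor kinases. Myostatin, GDF11 and activins signal through ACVR2A or ACVR2B with ALK4, ALK5 or ALK7 to SMAD2 and SMAD3, and in muscle this arm restrains growth. BMPs signal through BMPR2 or the activin type II receptors with ALK2, ALK3 or ALK6 to SMAD1, SMAD5 and SMAD9, an arm that maintains muscle mass and drives cartilage and bone formation, and follistatin binds activins and myostatin and keeps them from their receptors.

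Bmp5, Bmp6 and Bmp7 encode close relatives, and the ends of their coding sequences, which encode part of the mature ligand, are printed to show how far the mRNAs differ from that of Bmp5, the member with the largest genotype difference among those that passed the filter on low counts. Each line holds the last 180 coding bases, stop codon included, of the longest coding transcript in GENCODE M21 on build GRCm38, and capitals in Bmp6 and Bmp7 mark bases that differ from Bmp5, with the sequences aligned from the stop codon without gaps.
Bmp5: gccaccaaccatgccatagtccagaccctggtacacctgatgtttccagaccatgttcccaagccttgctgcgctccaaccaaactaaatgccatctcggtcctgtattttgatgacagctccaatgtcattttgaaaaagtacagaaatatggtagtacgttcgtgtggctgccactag
Bmp6: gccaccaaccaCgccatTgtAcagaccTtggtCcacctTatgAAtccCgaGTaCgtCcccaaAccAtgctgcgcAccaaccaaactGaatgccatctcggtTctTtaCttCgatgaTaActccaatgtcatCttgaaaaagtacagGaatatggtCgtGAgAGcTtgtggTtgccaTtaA
Bmp7: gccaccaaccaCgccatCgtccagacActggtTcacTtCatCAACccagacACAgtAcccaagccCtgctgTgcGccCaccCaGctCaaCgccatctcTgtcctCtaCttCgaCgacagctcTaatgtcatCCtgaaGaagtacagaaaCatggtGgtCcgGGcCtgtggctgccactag
The windows lie at chr9:75893775-75898582 (Bmp5, plus strand), chr13:38498798-38499068 (Bmp6, plus strand) and chr2:172870137-172872901 (Bmp7, minus strand). Each spans 2 exons and the intron between them. Bmp6 shared 146 of the 180 bases (81.1%) and Bmp7 143 (79.4%) with Bmp5. Over the whole coding sequences of Bmp2, Bmp4, Bmp5, Bmp6, Bmp7 and Inhba, the longest identical stretch in any of the 15 pairs was 25 bases, between Bmp6 and Bmp7.

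Counts on genes ranged from 26444372 (KO5) to 40471957 (KO4) per library. The study's methods left out KO2 and KO4 for too few total reads, and its supplement took their mapped reads as a sign of lower library quality. Counts on genes, used here, are another measure. In the counts the total of KO4 was above that of every other mouse, and KO2, at 28211941, was above KO5. Differences between genotypes are given for KO1, KO3 and KO5 against the 4 WT mice (below, the 7 mice), and again with all 9. The labelled tissue held in every library: 6 muscle fibre genes (Acta1, Ckm, Myh3, Myh8, Tnnt3, Mylpf) summed to between 53390 and 60930 CPM, the reads of a gene scaled to the total of its library after TMM normalization. Shank3 was counted at 25.7 to 38.5 CPM in all mice, a count over the whole gene that does not check the loss of exon 11. Other tissue differed between mice. In KO4, 6 cartilage genes summed to 232 CPM against 39.6 to 75.7 in the other 8 mice, and 5 tendon genes to 1014 against 498 to 741. In KO5, 5 adipocyte genes summed to 1126 CPM against 186 to 403. Xist, the RNA that coats the inactive X chromosome, split the mice: WT3, WT4, KO3 and KO5 held 618 to 925 CPM, and the other 5 mice 0.136 to 3.23 CPM. In those 5, 4 Y-linked genes summed to 190 to 248 CPM, against at most 0.423 CPM in the Xist-high mice. Both genotypes thus hold mice of both Xist classes. In whole muscle, fewer cells of a type and less RNA per cell cannot be told apart.

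Per kilobase of exon, myostatin was the most abundant of the 10 mRNAs, at 18.7 ± 3.16 CPM per kilobase (SD, n = 9). It was followed by Bmp4 at 10.6 ± 1.13, Fst at 8.14 ± 1.74 and Bmp6 at 3.78 ± 0.987. Myostatin lay above Bmp4 in 9 of 9 mice without overlap, and so did Fst above Bmp6. Bmp4 was above Fst in 8 of 9 mice, with overlapping ranges. Gdf11 (2.36 ± 0.308), Bmp5 (2.15 ± 0.711), Bmp7 (1.94 ± 0.288) and Inhba (1.78 ± 0.445) formed a group whose neighbours did not differ beyond their spread: the gene with the higher mean was the higher in 5, 5 and 6 of 9 mice. Bmp2 was lower at 1.17 ± 0.293, and Acvr1c lowest at a mean of 0.144, with mice from 0.00636 to 0.943. The first 5 places were the same in KO mice alone. In WT mice alone Bmp5 and Gdf11 changed places, and in KO mice alone Inhba, Bmp7 and Bmp5 came in this order. The place of Fst depends on the gene model: its exons cover 4589 bases together but only 1851 in the longest coding transcript, and per kilobase of the latter it came first, at 20.2.

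**Figure D1:**
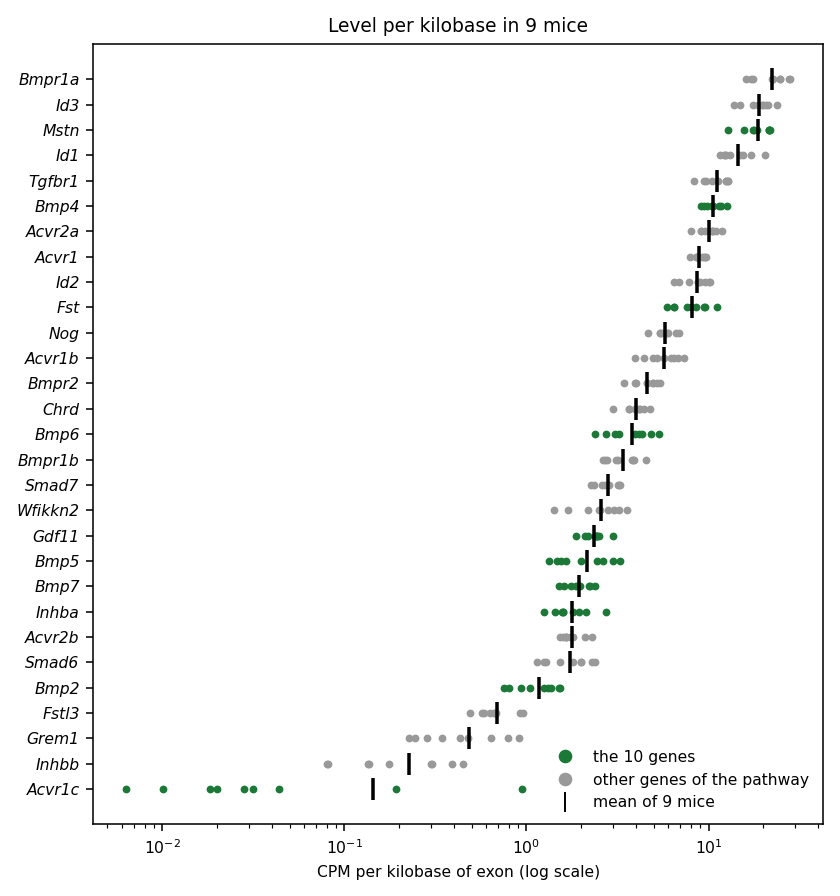
Level of the 10 genes (green) and of 19 other genes of the pathway (grey) in CPM per kilobase of exon on a log axis, with a point per mouse and a bar at the mean of 9 mice. Mstn lies between 12.8 and 21.7 and Acvr1c spans from 0.00636 to 0.943.

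Receptor mRNAs were counted in the same libraries. Of the type II receptor genes, Acvr2a ranged from 8.02 to 11.9 CPM per kilobase, and means were 4.57 ± 0.653 for Bmpr2 (SD, n = 9) and 1.78 ± 0.255 for Acvr2b. Acvr2a exceeded Acvr2b by 3.84 to 6.86 times within a mouse, with a median of 5.93. Of the type I receptor genes, Bmpr1a (ALK3) reached 22.4 ± 4.51, Tgfbr1 (ALK5) 11.1 ± 1.67, Acvr1 (ALK2) 8.92 ± 0.603, Acvr1b (ALK4) 5.66 ± 1.12 and Bmpr1b (ALK6) 3.38 ± 0.663. By the longest coding transcript Acvr1 (13.1) passed Tgfbr1 (12.6). Acvr1c (ALK7) was thus the rarest type I receptor mRNA of those named.

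Mstn (ENSMUSG00000026100, chromosome 1 from 53061640 to 53068079, here and below in GENCODE M21 on GRCm38), the gene of myostatin, was counted at 57.9 CPM in KO1, 58.4 in KO2, 47.2 in KO3, 34.5 in KO4 and 58.8 in KO5, and at 50.2 in WT1, 47.8 in WT2, 58.5 in WT3 and 42.4 in WT4. The genotypes overlapped, and KO4 was the lowest of all mice. The log2 difference, KO minus WT, was 0.13 (SE 0.13) in the 7 mice and 0.05 (SE 0.16) in 9. Gdf11 (ENSMUSG00000025352, chromosome 10 from 128882295 to 128891718), whose product is the closest relative of myostatin, stood at 8.80, 12.1, 8.55, 9.72 and 9.86 CPM in KO1 to KO5 and at 10.1, 9.86, 9.79 and 7.61 CPM in WT1 to WT4. These groups overlapped as well, with a log2 difference of -0.05 (SE 0.15) in the 7 mice. Per kilobase, Mstn exceeded Gdf11 by 5.34 times in KO4 and by 7.23 to 9.88 times in the other 8 mice.

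Bmp5 (ENSMUSG00000032179, chromosome 9 from 75775364 to 75900310), a ligand with roles in cartilage and bone growth, was the member with the largest genotype difference among the 9 that passed the filter on low counts, which Acvr1c did not. It was counted at 6.67 CPM in KO1, 5.94 in KO2, 6.26 in KO3, 12.1 in KO4 and 5.39 in KO5, and at 9.85 in WT1, 10.6 in WT2, 13.2 in WT3 and 8.0 in WT4. The KO mice other than KO4 lay below every WT mouse, and KO4 lay inside the WT range. These values rest on 142 to 460 reads per library. The mean was 6.10 ± 0.654 CPM in KO1, KO3 and KO5 (SD, n = 3) and 10.4 ± 2.14 in WT (SD, n = 4), a ratio of 0.587. The log2 difference was -0.78 (SE 0.18) in the 7 mice and -0.51 (SE 0.23) in 9. This is the difference for which the genes were chosen, so it carries no p here. KO1, KO3 and KO5 all lay below every WT mouse in 284 of the 21809 genes tested (1.3%), of which Bmp5 is the single member.

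The genotype order of Bmp5 was the same in both Xist classes, KO4 excepted. Among Xist-high mice, KO3 and KO5 (6.26 and 5.39 CPM) were below WT3 and WT4 (13.2 and 8.0 CPM). Among Xist-low mice, KO1 and KO2 (6.67 and 5.94 CPM) were below WT1 and WT2 (9.85 and 10.6 CPM) and KO4 was above both. KO4 is also the mouse with the high cartilage and tendon genes. Its sum of 6 fibro-adipogenic progenitor genes was the highest, at 21870 CPM against 10920 to 17990 CPM in the other mice. Its sum of 5 satellite cell and myoblast genes was the lowest, at 328 CPM against 364 to 540 CPM. The part of these tissues and cells in the Bmp5 value of KO4 was not tested. The cartilage sum was 39.6 to 68.7 CPM in KO1, KO3 and KO5, 47.0 CPM in KO2 and 46.9 to 75.7 CPM in WT. The 4 bone genes (Ibsp, Bglap, Sp7, Dmp1) summed to 4.06 CPM in KO3 and 2.47 CPM in KO5, below the 23.7 to 49.6 CPM of WT, but to 80.0 CPM in KO1, 74.4 CPM in KO4 and 39.9 CPM in KO2, which lay inside the WT range. The Schwann cell genes summed to 123 to 411 CPM in KO1, KO3 and KO5 and to 100.5 to 151 CPM in WT, with KO3 inside the WT range, and the adipocyte genes to 289 to 1126 CPM and 211 to 289 CPM. The part of cartilage, bone, nerve and fat tissue in the Bmp5 values was not tested.

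Bmp6 (ENSMUSG00000039004, chromosome 13 from 38345107 to 38500302) and Bmp7 (ENSMUSG00000008999, chromosome 2 from 172868012 to 172940321) encode close relatives of BMP5. Bmp6 was counted at 9.33, 10.7, 16.8, 19.0 and 15.4 CPM in KO1 to KO5 and at 12.6, 11.99, 20.7 and 16.1 CPM in WT1 to WT4. The genotypes overlapped (log2 difference -0.16, SE 0.24 in the 7 mice). Bmp7 stood at 6.10, 7.71, 6.48, 7.51 and 8.84 CPM in KO1 to KO5 and at 7.11, 9.01, 7.92 and 9.53 CPM in WT1 to WT4. It overlapped too, with a log2 difference of -0.24 (SE 0.18) in the 7 mice and -0.20 (SE 0.14) in 9.

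Bmp4 (ENSMUSG00000021835, chromosome 14 from 46383520 to 46390669), which acts in early mesoderm and is known to hold muscle progenitors undifferentiated, varied least of the 10 genes. It was at 23.5, 21.3, 22.1, 28.3 and 23.7 CPM in KO1 to KO5 and at 23.6, 26.4, 20.5 and 25.7 CPM in WT1 to WT4. Its SD of log2 CPM over the 9 mice was 0.151, against a median of 0.176 among the 3814 tested genes within 1.5 times its level. That of Bmp5 was 0.472, against 0.222 among 2899 genes of its level. Bmp2 (ENSMUSG00000027358, chromosome 2 from 133552159 to 133562885), a strong inducer of bone, was at 4.85, 2.85, 2.67, 5.44 and 5.35 CPM in KO1 to KO5 and at 3.32, 3.72, 4.44 and 4.68 CPM in WT1 to WT4. The KO mice lay both above and below the WT range, and the log2 difference was 0.08 (SE 0.25) in the 7 mice.

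Inhba (ENSMUSG00000041324, chromosome 13 from 16011851 to 16031621) encodes the subunit whose dimer is activin A. It was counted at 13.6, 9.16, 10.1, 17.5 and 10.1 CPM in KO1 to KO5 and at 12.5, 10.01, 11.5 and 8.0 CPM in WT1 to WT4. KO4 was again the highest mouse, as it was for Bmp2 and Bmp4. The log2 difference was 0.10 (SE 0.18) in the 7 mice and 0.21 (SE 0.20) in 9. Fst (ENSMUSG00000021765, chromosome 13 from 114452290 to 114458951), the gene of follistatin, was at 43.8, 37.0, 29.6, 39.1 and 43.5 CPM in KO1 to KO5 and at 51.4, 35.0, 27.1 and 29.8 CPM in WT1 to WT4. The genotypes overlapped, with a log2 difference of 0.12 (SE 0.22) in the 7 mice. Per kilobase of exon, Fst exceeded Inhba by 3.12 to 5.98 times within a mouse, and Mstn exceeded Fst by 1.5 to 3.67 times. Both ratios depend on the gene model. Per kilobase of the longest coding transcript the mean of Fst was 20.2, above the 18.7 of Mstn, and that of Inhba was 1.78.

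**Figure D2:**
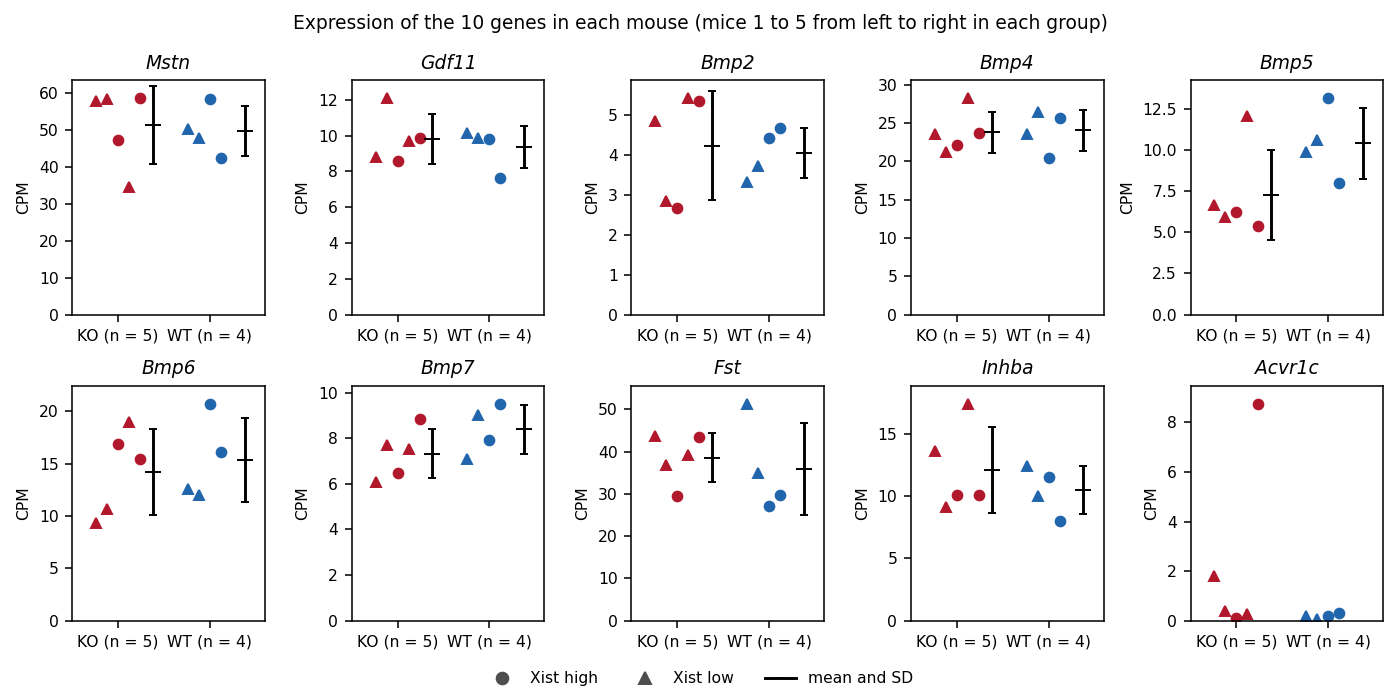
CPM of each of the 10 genes in KO mice (red) and WT mice (blue), with circles for Xist-high and triangles for Xist-low mice, and bars for the mean and SD of each genotype except in the panel of Acvr1c. KO1, KO2, KO3 and KO5 lie below all WT mice for Bmp5 and KO4 lies at 12.1 CPM, and KO5 stands alone for Acvr1c at 8.76 CPM.

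Acvr1c (ENSMUSG00000026834, chromosome 2 from 58267453 to 58357895) encodes ALK7, a type I receptor best known from fat tissue, where it restrains lipid breakdown. It was listed with 57, 12, 3, 10 and 231 reads in KO1 to KO5 and with 6, 2, 5 and 9 reads in WT1 to WT4, which is 1.78, 0.407, 0.0944, 0.263 and 8.76 CPM against 0.185, 0.0591, 0.171 and 0.293 CPM. Only KO1 and KO5 had more than 12 reads, and the gene did not pass the filter on low counts, so it is not among the 9 fitted members. With no filter the log2 difference in the 7 mice was 4.29 (SE 1.46), and it was 2.40 (SE 1.00) without KO5 and 4.61 (SE 1.63) without KO1, a description with no test. The 2 mice with the highest Acvr1c, KO5 and KO1, were also the highest in 4 of the 5 adipocyte genes. Adipoq, the gene of adiponectin, was at 78.6 CPM in KO5 and 9.01 in KO1 against 0.0295 to 2.82 in the other 7 mice. Plin1, which coats lipid droplets, was at 33.7 and 4.41 CPM against 0.0886 to 2.71, Cidec at 25.7 and 3.38 CPM against 0.0308 to 0.916, and Cfd at 145 and 9.01 CPM against 0 to 0.509. Fabp4, which endothelium also expresses, was at 843 CPM in KO5 and at 179 to 402 CPM in the others. The adipocyte list summed to 289 to 1126 CPM in KO1, KO3 and KO5 and to 211 to 289 CPM in WT, and Cfd was listed at 0 in KO4 and WT3. KO5 also had the highest sum of 4 Schwann cell genes, 411 CPM against 94.2 to 199. The sums of KO1 (199 CPM) and KO2 (179 CPM) also lay above the 100.5 to 151 CPM of WT. Between genotypes in the 7 mice, 4 of the 4 adipocyte genes that passed the filter and 3 of the 4 Schwann cell genes were at p below 0.05 with a positive difference. The part of fat or nerve tissue in the Acvr1c counts was not tested.

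**Figure D3:**
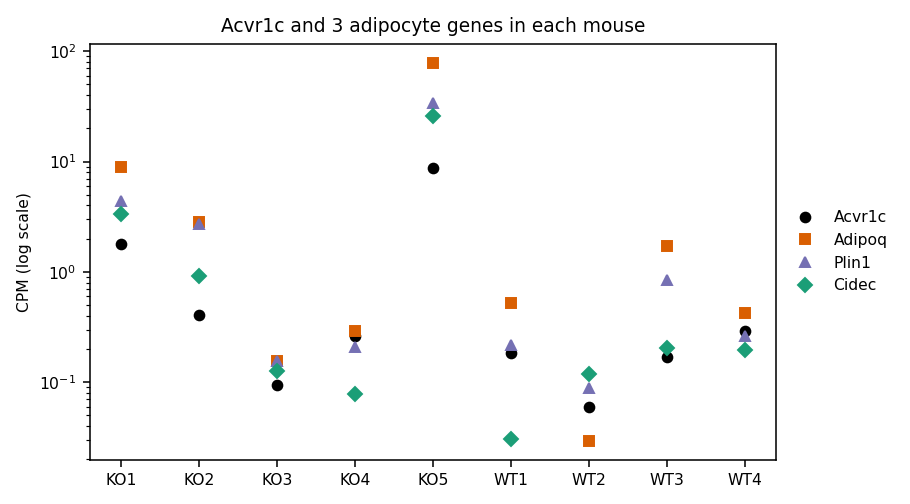
Acvr1c and the adipocyte genes Adipoq, Plin1 and Cidec in CPM on a log axis, a column per mouse. KO5, with Acvr1c at 8.76 CPM and Adipoq at 78.6 CPM, is the highest mouse for each of the 4 genes and KO1 the second highest.

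Of the 10 genes, 9 passed edgeR's filter on low counts. In the 7 mice 4 of them had a positive and 5 a negative difference, with a median log2 difference of -0.05, and over the 21809 genes tested 10414 were positive and 11395 negative with a median of -0.01. With all 9 mice the members split into 5 and 4, with a median of 0.05. Apart from Bmp5, the differences of the 8 others lay between -0.24 and 0.13 in the 7 mice, and each of the 8 overlapped between genotypes.

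**Figure D4:**
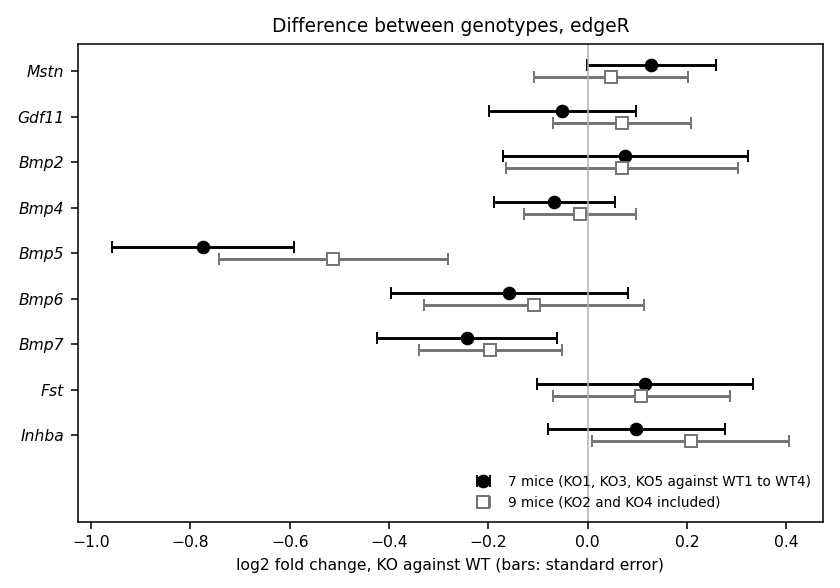
Log2 fold change of KO against WT, with its standard error, for the 9 genes that passed the filter on low counts, in the 7 mice (filled) and in all 9 (open). Bmp5 lies at -0.78 and -0.51 and the 8 others lie between -0.24 and 0.21.

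The other genes of the pathway, 95 in 7 lists by role, were tested for the same contrast, and 83 passed the filter. No gene of the table was called, which takes p below 0.05 and a Benjamini-Hochberg FDR below 25% (0%, lowest FDR 0.881 by edgeR), with 453 of 21809 genes at p below 0.05 (2.08%). DESeq2 called 6 genes and limma-voom 0. The study, using limma, did report differentially expressed genes at p below 0.05 and an FDR of 25%. The source of this difference was not tested. In the pathway lists 2 of 83 genes were at p below 0.05 (2.41%), close to the share of all genes. Acvr1b, the activin receptor ALK4, was at 25.04, 21.9 and 17.4 CPM in KO1, KO3 and KO5 against 23.1 to 29.9 CPM in WT (log2 difference -0.35, SE 0.15, edgeR FDR = 1.00). KO2, at 32.2 CPM, was above every WT mouse, and with all 9 mice the difference was -0.23 (SE 0.16). Gdf15, a stress-induced ligand, had a log2 difference of 0.96 (SE 0.42, edgeR FDR = 1.00), on 1 to 15 reads per mouse, and with all 9 mice no listed gene was at p below 0.05. Of the 11 other receptor genes 2 had a positive and 9 a negative difference, of 18 antagonist genes 9 and 9, and of 12 Smads and their regulators 5 and 7. The BMP target genes Id1, Id2 and Id3 had log2 differences of -0.06 (SE 0.16), -0.16 (SE 0.16) and -0.16 (SE 0.18), and Id4, named after its value was seen, 0.39 (SE 0.21), none at p below 0.05. Of the 14 target genes 4 had a positive and 10 a negative difference, but with all 9 mice 9 of 13 were positive, Id1 (0.07) among them. Smad6 and Smad7, inhibitory Smads that BMP and TGF-beta signals induce, had -0.33 (SE 0.25) and 0.04 (SE 0.15), and neither was at p below 0.05. Among the antagonists Nog was at -0.21 (SE 0.15), Chrd at -0.15 (SE 0.14), Wfikkn2, which binds myostatin and GDF11, at -0.10 (SE 0.30), Fstl3 at 0.02 (SE 0.26) and Grem1 at 0.22 (SE 0.44).

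A contrast that the choice of the genes did not use is that between the 4 Xist-high and the 5 Xist-low mice, fitted with genotype in the model. These classes were read from the counts and are not groups of the study. Of 21735 genes, 1947 (8.96%) were at p below 0.05 and 31 (0.143%) were called, 9 of them on the X and 6 on the Y chromosome. No member was called in the 9 mice by edgeR, DESeq2 or limma-voom in fits without the replicate number, and 2 of the 9 fitted were at p below 0.05 by edgeR. Bmp6 was at 15.4 to 20.7 CPM in Xist-high mice. In Xist-low mice it was at 9.33 to 12.6 CPM in KO1, KO2, WT1 and WT2, but at 19.0 CPM in KO4. The log2 difference was 0.43 (SE 0.19, edgeR p = 0.0416, FDR = 0.546), and the 2-sided exact permutation test gave p = 0.0635, with 0.00794 the smallest p that 4 against 5 mice allow. Whether Bmp6 was called turned on KO4, the mouse with the high cartilage and tendon sums, and the part of those tissues in this value was not tested. Of the fits that each left out a mouse, that without KO4 was picked for mention after its value was seen. There the Xist-high mice all lay above the Xist-low mice. Bmp6 was called (0.64, SE 0.11, edgeR FDR = 0.0222), in a fit that called 3562 of 21467 genes (16.6%). In the 7 mice it was called as well (0.67, SE 0.13, edgeR FDR = 0.0501), beside 2424 of 21809 genes (11.1%). Over all 17 alternatives the FDR ran from 0.0222 to 0.977, and with the replicate number as a block the sign turned (-0.54, edgeR FDR = 0.385).

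Fst had a difference of the opposite sign, with 27.1 to 43.5 CPM in Xist-high and 35.0 to 51.4 CPM in Xist-low mice (log2 difference -0.34, SE 0.15, edgeR p = 0.0460, FDR = 0.551; 2-sided exact permutation test p = 0.0794). KO5 was the Xist-high mouse inside the range of the others. Without KO5 the difference was -0.53 and the gene was called (edgeR FDR = 0.154), beside 1319 of 21522 genes (6.13%), and it was called at -0.37 without KO4 (FDR = 0.247) and at -0.46 in the 7 mice (FDR = 0.231). Without WT1 it stood at -0.20, the value nearest to 0 of all alternatives, and was not called. Over all 17 alternatives the FDR ran from 0.154 to 0.977. The other 7 fitted members were not at p below 0.05 in the 9 mice: Inhba stood at -0.31 (SE 0.19), Bmp5 at -0.24 (SE 0.23), Gdf11 at -0.17 (SE 0.13), Bmp4 at -0.10 (SE 0.11), Mstn at 0.06 (SE 0.16), Bmp2 at 0.10 (SE 0.24) and Bmp7 at 0.11 (SE 0.15). Over the 17 alternatives the FDR ran from 0.0941 to 0.977 for Bmp5 and from 0.117 to 0.977 for Inhba, and both were called with the replicate number as a block and in no other alternative.

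In the pathway lists, 12 of 83 other genes were at p below 0.05 between Xist classes (14.5%), against 8.96% of all genes. Of these, 2 had a positive and 10 a negative difference, Xist-high minus Xist-low, and of all genes at p below 0.05, 1074 and 873. The 1 called was Smoc1, which encodes a secreted protein of the matrix that antagonizes BMPs and is named here after its value was seen. It was at 35.0 CPM in WT3, 29.9 in WT4, 34.6 in KO3 and 28.0 in KO5, and at 19.9, 20.8, 20.6, 20.3 and 19.1 CPM in KO1, KO2, KO4, WT1 and WT2. The classes did not overlap, in either genotype (log2 difference 0.66, SE 0.10, edgeR FDR = 0.0377; 2-sided exact permutation test p = 0.00794, the smallest possible). The call was lost without KO3 (0.61, edgeR FDR = 0.315), when 10 of 21449 genes (0.0466%) were called, and over all 17 alternatives the FDR ran from 4e-06 to 0.327. More of the lists was called where more of all genes was: 9 of 83 (10.8%) in the 7 mice, against 11.1% of all genes, and 18 of 81 (22.2%) without KO4, against 16.6%, with 5 positive and 13 negative differences. Without KO4 the calls included 4 of the 11 other receptor genes and 5 of the 12 Smads and regulators. Of the 12 Smads and regulators 11 had a negative difference, with 3 at p below 0.05: Smad6 (-0.53, but 0.42 with the replicate number as a block), Smad5 (-0.26) and Smurf2 (-0.24). Of the 11 other receptor genes 10 had a negative difference, with Tgfbr1 (-0.27) at p below 0.05. Of the 18 other antagonist genes 14 had a positive and 4 a negative difference and of 6 co-receptor genes 5 and 1, and over all genes tested 10977 were positive and 10758 negative. Of 13 target genes 1 positive and 2 negative differences were at p below 0.05, among them Runx2, a factor of bone formation (-1.23, SE 0.34, edgeR FDR = 0.478), and Msx1 (0.47, SE 0.17, edgeR FDR = 0.504). The bone genes summed to 2.47 to 49.6 CPM in Xist-high and to 23.7 to 80.0 CPM in Xist-low mice, and their part in the Runx2 value was not tested.

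**Figure D5:**
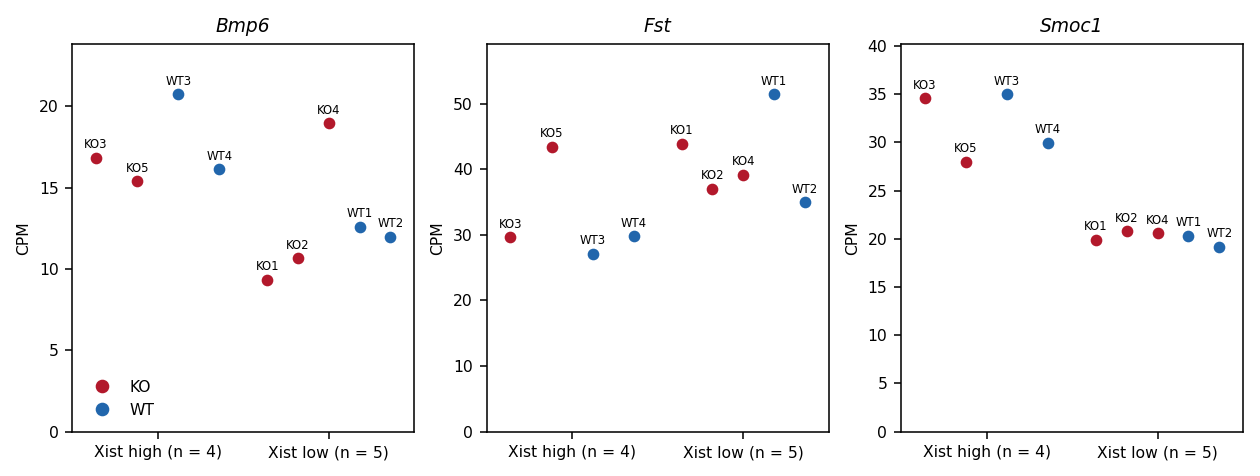
CPM of Bmp6, Fst and Smoc1 in Xist-high and Xist-low mice, a labelled point per mouse, KO in red and WT in blue. Smoc1 separates the classes at 28.0 to 35.0 against 19.1 to 20.8 CPM, while KO4 lies among the Xist-high mice for Bmp6 and KO5 among the Xist-low mice for Fst.

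The genes whose level followed Bmp5 most closely across the mice were sought among 17979 genes with a mean of at least 1 CPM, by Pearson's r of log2 CPM over the 9 mice. They were Pcdhb22, a clustered protocadherin (r = 0.93, Spearman's rho = 0.92), Col20a1, a collagen (0.91 and 0.88), Hs3st3a1, a heparan sulfate sulfotransferase (0.89 and 0.92), Gm26903 (0.87 and 0.75) and Homer2, a scaffold protein that binds Shank proteins (0.87 and 0.80). Without WT3 and KO4, the 2 mice farthest from the median of Bmp5, r was 0.98, 0.87, 0.84, 0.78 and 0.73. These are the highest of 17979 values over 9 mice, with all genes read from the same libraries, and they are given as a description. Gm26903 (chromosome 9 from 75897843 to 76015192, minus strand) overlaps the end of Bmp5, which is on the plus strand, so it is not a separate locus. Whether strand was used in counting is not given, and the part of the overlap in its r was not tested.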

How the data were processed

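RNA sequencing of 9 mice was used. The counts, as deposited, are the authors' whole numbers of reads per Ensembl gene, from reads mapped with HISAT2 to mm10 and counted with featureCounts, without normalization. Which annotation release was counted, whether strand was used and how multi-mapping reads were treated is not given in the sources used here. All 9 columns were mapped to a mouse. Genes were placed with GENCODE M21. Library totals ranged from 26444372 to 40471957. The members, the lists and the tests were chosen with earlier results of these data known. The named genes were the 10 members, 19 pathway genes fixed by function, listed genes with p below 0.05 between genotypes, and the 5 genes most like Bmp5. Id4 and listed genes named for the Xist classes alone, Smoc1 among them, were chosen after their values were seen. Genes were filtered with filterByExpr (minimum count 10, total 15) and tested with edgeR 4.0.16 in R 4.3.3 (TMM, 2-sided quasi-likelihood test, Benjamini-Hochberg FDR over all genes tested), and called at p below 0.05 with FDR below 25%. SE is that of the fit, and CPM uses TMM factors of the 9 mice. Xist-high mice had over 100 CPM and Xist-low mice under 10. Libraries of a genotype differed by a chi-square of at least 18.9 per degree of freedom, so none was a copy. The labels do not name separate litters, so the p-values measure the spread between these mice. Alternatives were other mice, filters, RLE scaling, DESeq2 1.42.0, limma-voom (limma 3.58.1), the replicate number as a block, the Xist class as a covariate and each mouse left out. Python 3.11.15 with matplotlib 3.10.9 drew the figures.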

Additional observations from a re-analysis of the deposited data

Results flagged for a closer look

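Within each genotype, the gap between the most extreme mouse and its neighbour was divided by the range of the group for the 10 members and 21 other named genes, 62 groups in all. In 6 groups this share passed the 95% critical value of Dixon's test (0.71 for the 5 KO mice and 0.829 for the 4 WT mice), and chance flags about 1 in 20 groups. In Bmp5, KO4 stood above the other KO mice with a gap of 0.809 of the range, at 12.1 CPM against 5.39 to 6.67 CPM. In Acvr1c, KO5 stood above the others with 0.805 of the range, at 8.76 CPM against at most 1.78 CPM. WT4 was the low mouse in Gdf11 (0.869 of the range, 7.61 CPM against 9.79 to 10.1 CPM), in the type II receptor gene Bmpr2 (0.883, 61.4 CPM against 89.5 to 93.2 CPM of the other WT mice) and in the type I receptor gene Tgfbr1 (0.923, 61.5 CPM against 81.4 to 83.1 CPM). KO2 stood above the other KO mice in Acvr2b (0.828 of the range, 9.03 CPM against 5.99 to 6.51 CPM).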

How the results depend on the processing

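Bmp5, chosen for this difference, was lower in KO mice in all 16 alternatives, at log2 values from -0.88 to -0.47. It ran from -0.88 to -0.63 when 1 of the 7 mice was left out. As KO1, KO3 and KO5 all lay below every WT mouse, leaving out a mouse could not turn this sign. KO4 entered only the fits of all 9 mice, which gave the smallest differences: -0.51, and -0.47 with the replicate number as a block. Bmp7 kept its negative sign in all 16 too, and each of the other 7 fitted members changed sign in at least 1. The 453 genes at p below 0.05 between genotypes became 972 without a filter, and ranged from 224 (without KO5) to 968 (without KO1) when a mouse was left out, with 794 without KO3. The count of called genes, 0 in the 7 mice, was 1 without a filter, 6 by DESeq2, 1 with the Xist class in the model and 0 to 15 with a mouse left out (15 without KO1, 4 without KO3, 1 without WT2). The 2 pathway genes at p below 0.05 became 0 with all 9 mice, 1 with at least 10 counts in every mouse, by DESeq2 and with the Xist class, and 0 to 7 with a mouse left out (7 without KO1, 5 without KO3, 0 without KO5, 1 without WT4). The 31 genes called between Xist classes became 2424 in the 7 mice, 294 without a filter, 16 with at least 10 counts in every mouse and 447 by DESeq2. With a mouse left out they ranged from 10 to 3562 (3562 without KO4, 1319 without KO5, 17 without KO1, 10 without KO3, 15 without WT1, 16 without WT2, 14 without WT4). The cause of these shifts was not tested.

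The replicate number as a replicate block gave 844 genes at p below 0.05, 9 called genes and 4 pathway genes between genotypes in the 7 mice, which share only numbers 1 and 3, and with all 9 mice, added after seeing the data, 2 called genes and 1 pathway gene. Deviations of same-numbered mice correlated at 0.372, 0.054, 0.361 and 0.097 for numbers 1 to 4, and KO1, KO3 and KO4 correlated best with the WT mouse of their number but KO2 with WT1. As 2 of the 4 correlations were under 0.1 and the labels tie a number to no litter or day, the numbers were not taken to pair the mice. Between Xist classes the block left KO4 against WT4 as the sole pair that differs in class, called 523 of 21735 genes (2.41%), among them the members Bmp5 (-1.42, FDR = 0.0941 by edgeR) and Inhba (-1.19, FDR = 0.117), turned Bmp6 to -0.54, Bmp2 to -0.39, Smad6 to 0.42, Acvr1b to 0.45, Acvr2b to 0.56 and Id3 to 0.46, none of them called, and ended the call of Smoc1 (0.57, FDR = 0.327 by edgeR). Counting limits precision for Acvr1c (2 to 231 reads) and Gdf15 (1 to 15 reads). The coding sequences of the 6 BMP and activin ligand genes share at most 25 identical bases in a row, but the length of the reads is not given in the sources used here.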

Other observations

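Per kilobase of exon, Bmpr1a exceeded Bmpr1b by 5.71 to 7.98 times, with a median of 6.48 over the 9 mice. Bmp4 exceeded Bmp5 by 6.31 times in KO1, 6.41 in KO2, 6.32 in KO3, 4.2 in KO4 and 7.87 in KO5, and by 4.29, 4.46, 2.78 and 5.75 times in WT1 to WT4. Inhbb, the gene of another activin subunit, was at 0.341 to 1.90 CPM, on at most 63 reads per mouse.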
